A study of Homo sapiens with 9 samples.

Results

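The genes described here are 10 components of TGF-beta, activin and BMP signalling, followed across 3 states of a human breast cancer line: the ligand genes TGFB1, TGFB2, INHBA, BMP4 and BMP5, the receptor genes TGFBR1 and TGFBR2, and the SMAD genes SMAD3, SMAD6 and SMAD7. They were taken by symbol from the deposited counts, all 10 were found among the 56505 genes listed, and all 10 passed the filter on low counts that left 16921 genes to test. The states were JAG1 knockout clone 1, JAG1 knockout clone 2 and wild-type MDA-MB-231-D3H2LN cells, with 3 RNA-seq libraries each. This line derives from MDA-MB-231, a triple-negative breast cancer line. JAG1 encodes Jagged-1, a membrane ligand of Notch receptors. Per the labels, Cas9 protein carrying guides against a pair of places in 1 JAG1 exon was transfected, and homozygous clones were grown from single cells. All groups were kept in high-glucose medium with serum. Each clone is 1 line, so the results describe these lines. The labels do not say whether replicates were separate cultures, so the spread that the p-values rest on may be technical.

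Ligands of this superfamily are secreted dimers that bring type I and type II receptor kinases together at the cell surface. TGF-betas act through TGFBR2 and TGFBR1, activins through activin receptors, and both lead to phosphorylation of SMAD2 and SMAD3. BMPs act through their own receptors on SMAD1, SMAD5 and SMAD9. SMAD4 joins both branches, while SMAD6 and SMAD7 are inhibitory SMADs that active signalling induces. In breast epithelium TGF-beta restrains growth, and in advanced tumours it is known for promoting invasion and mesenchymal traits.

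Of the 10 genes, 3 ligand genes passed the test against wild type in the fit reported here. SMAD6 did not pass in that fit but was lower in clone 1 under some other settings, given below. In the fit of all 9 libraries without a replicate block, TGFB2, INHBA and BMP5 were lower in clone 1 and BMP5 also in clone 2, no member was called higher in either clone, and the receptor and SMAD genes did not pass the test. By fitted fold, TGFB2 was at 48.5%, INHBA at 27.1% and BMP5 at 11.9% of wild type in clone 1, and BMP5 was at 26.4% in clone 2. A gene is called here where edgeR's quasi-likelihood test over all 16921 genes gave a Benjamini-Hochberg adjusted p under 0.05. In RNA from whole cultures, fewer cells expressing a gene and less RNA per cell cannot be told apart.

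The RefSeq promoter windows of the 3 genes called lower in clone 1, TGFB2, BMP5 and INHBA, are printed here. They run from 250 bases before to 50 after the listed start in GRCh38.p14, read 5′ to 3′ along the gene. Whether the 3 genes share a regulator was not tested. Capitals mark matches on either strand to CAGAC, a core SMAD-binding motif, or to TGGGAA, the core motif of CSL, the DNA-binding partner of Notch.
TGFB2, chr1:218345086-218345385, plus strand: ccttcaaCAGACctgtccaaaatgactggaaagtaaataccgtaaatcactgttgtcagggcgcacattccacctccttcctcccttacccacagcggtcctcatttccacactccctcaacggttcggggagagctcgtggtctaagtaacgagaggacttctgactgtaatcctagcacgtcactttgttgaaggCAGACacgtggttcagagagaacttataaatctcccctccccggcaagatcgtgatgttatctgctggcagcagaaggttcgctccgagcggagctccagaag
BMP5, chr6:55875541-55875840, minus strand: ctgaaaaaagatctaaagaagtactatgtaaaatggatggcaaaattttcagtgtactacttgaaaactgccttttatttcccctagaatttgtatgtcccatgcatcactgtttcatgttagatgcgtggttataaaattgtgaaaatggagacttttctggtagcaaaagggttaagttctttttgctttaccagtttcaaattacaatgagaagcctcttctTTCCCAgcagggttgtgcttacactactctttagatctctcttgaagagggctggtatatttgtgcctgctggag
INHBA, chr7:41703041-41703340, minus strand: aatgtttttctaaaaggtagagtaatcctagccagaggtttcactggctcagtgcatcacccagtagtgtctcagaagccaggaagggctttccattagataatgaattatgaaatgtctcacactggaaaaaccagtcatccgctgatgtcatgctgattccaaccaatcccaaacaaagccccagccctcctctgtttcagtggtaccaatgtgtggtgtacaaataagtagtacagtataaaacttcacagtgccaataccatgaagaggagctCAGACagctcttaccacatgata
The TGFB2 window held 2 CAGAC matches, 243 and 53 bases before the start. In the BMP5 window 1 TGGGAA match stood, read as TTCCCA, 25 bases before the start. The INHBA window held 1 CAGAC match, 27 bases after the start. A match is a description of letters and not a binding site: CAGAC occurred in 45.3% and TGGGAA in 24% of 35116 such windows. The AP-1 type motif TGANTCA, found in 7.71% of windows, was in none of the 3 windows. The RefSeq start of TGFB2 lies upstream of the first exon in the files, and the INHBA gene model of the files extends further upstream than its RefSeq start.

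The targeted gene, JAG1, averaged 94.5 ± 14.9 CPM in clone 1, 66.9 ± 9.87 CPM in clone 2 and 195.9 ± 44.7 CPM in wild type (SD, n = 3 each). CPM are counts scaled to the library size after TMM correction, and all differences are on the log2 scale. JAG1 fell by 1.05 in clone 1 (adjusted p = 0.00312) and by 1.55 in clone 2 (adjusted p = 0.000130). Total counts per library ran from 16890890 to 22456164. Of 10 markers of this line, all 10 stood above 1 TPM (a level per library size and gene length) in all groups, with summed levels of 6111 to 6970 TPM in clone 1, 7064 to 7926 TPM in clone 2 and 6573 to 7386 TPM in wild type. Single markers differed: S100A4 averaged 635, 126 and 713 TPM and VIM 570, 1339 and 853 TPM in that order. In clone 1, 2 of the 10 were called lower and 0 higher (4.1% and 1.41% of all genes). In clone 2, 1 was lower and 1 higher (2.75% and 3.21%). Of 10 genes listed as absent or low in this line, 6 stood above 1 TPM in all groups. That list summed to 119.1 to 168.9 TPM in clone 1, 83.0 to 119.4 TPM in clone 2 and 114.5 to 149.5 TPM in wild type. Its highest gene, CLDN4, averaged 66.6, 38.7 and 53.8 TPM in the same order. The oestrogen and progesterone receptor genes ESR1 and PGR, from the same list, averaged at most 0.188 and 0.0478 TPM in any group. Among 10 blood markers, CD3E, MS4A1, HBB and HBA1 were at 0 in all libraries, and the list summed to 2.26 to 4.25 TPM in clone 1, 0.721 to 1.61 TPM in clone 2 and 2.95 to 8.41 TPM in wild type. Mitochondrial mRNAs took 3.60 ± 1.31% of counts in clone 1, 1.21 ± 0.506% in clone 2 and 2.62 ± 1.01% in wild type (SD, n = 3 each). Fibroblast and pericyte markers summed to 18.3 to 23.8 TPM in clone 1, 8.06 to 11.3 TPM in clone 2 and 20.2 to 40.5 TPM in wild type, and their part in the results was not tested. None of the 10 was at 0 in all 9 libraries, but DCN had 0 counts over the clone 2 libraries. LUM averaged 11.4 TPM in clone 1, 0.532 TPM in clone 2 and 16.0 TPM in wild type.

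In clone 1, 3 of the 10 members were lower and 0 higher, against 4.1% of all tested genes called lower and 1.41% called higher. The libraries of clone 1 lay wholly below those of wild type for 5 members (TGFB2, INHBA, BMP5, TGFBR1 and SMAD6) and above them for 0, against 16.5% of all genes below and 13.1% above. At an unadjusted p under 0.05, 5 members were lower in clone 1 and 0 higher, against 13.9% and 7.95% of all genes. DESeq2 called 4 lower in clone 1 and 0 higher, against 5.68% and 3.06% of all genes. The median log2 fold change was -0.43 over the members and -0.02 over all genes tested. In clone 2, 1 member was lower and 0 higher, against 2.75% and 3.21% of all genes. At an unadjusted p under 0.05, 2 members were lower in clone 2 and 0 higher, against 11.1% and 13.1% of all genes, and DESeq2 called 2 lower and 0 higher, against 5.28% and 5.47%. Its libraries lay wholly below wild type for 3 members (INHBA, BMP5 and TGFBR1) and above for 0, against 11.7% and 14.2% of all genes. The member median was -0.26 in clone 2, against 0.00 over all genes. Both clones were compared with the same wild-type libraries, so their agreement carries a shared error. The members were chosen with earlier results of these data known, so the shares beside them are a description and not a test.

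**Figure D1:**
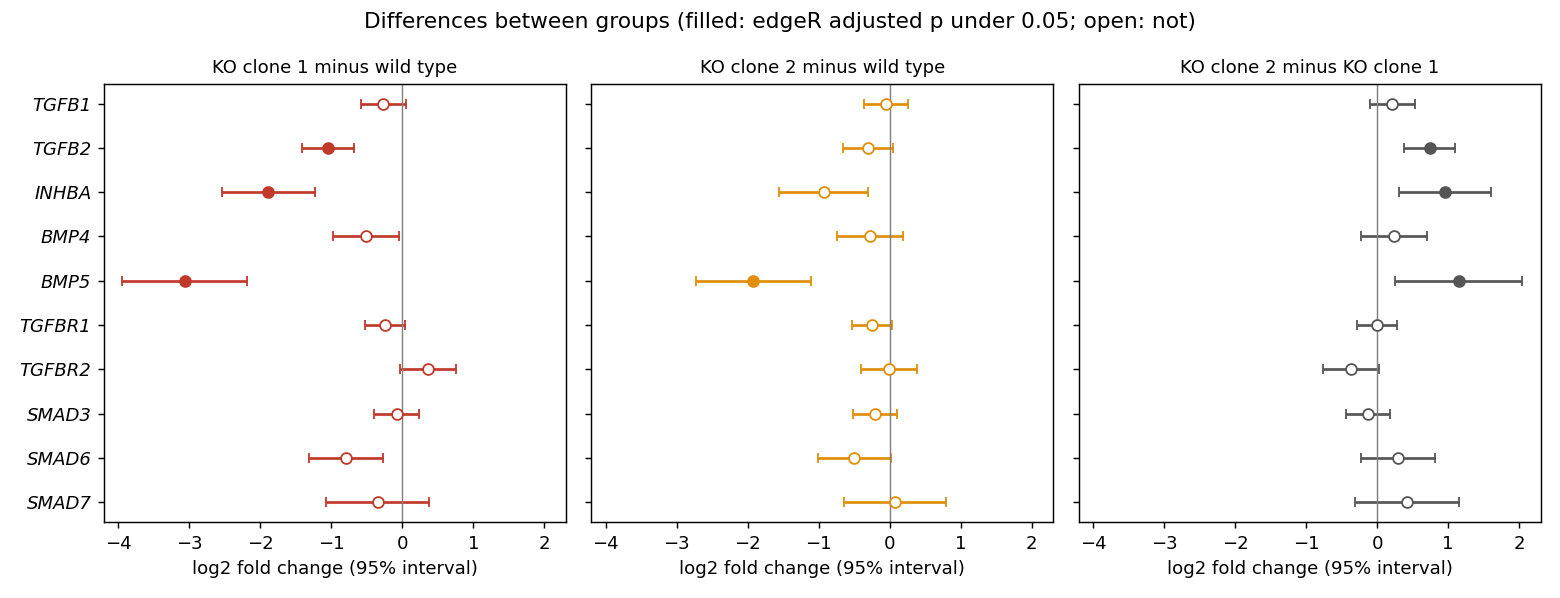
Log2 fold change of the 10 members (rows) in clone 1 minus wild type, clone 2 minus wild type and clone 2 minus clone 1, with 95% intervals from edgeR; filled points have an adjusted p under 0.05. In clone 1 the filled points are TGFB2 (-1.04), INHBA (-1.88) and BMP5 (-3.07), and in clone 2 only BMP5 (-1.92) is filled.

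Among the ligands, TGFB1 and TGFB2 encode TGF-beta proteins, INHBA encodes the subunit whose dimer is activin A, and BMP4 and BMP5 encode bone morphogenetic proteins. TGFB2 (chromosome 1, 218346235 to 218444619, plus strand, GRCh38) had 24.4, 35.0 and 28.9 CPM in clone 1, 47.8, 50.1 and 49.6 CPM in clone 2, and 49.2, 58.2 and 74.9 CPM in wild type. All 3 clone 1 libraries lay below every other library, whereas clone 2 and wild type overlapped. In clone 1 TGFB2 fell by 1.04 (SE 0.17, 95% interval -1.41 to -0.68, adjusted p = 0.00249). In clone 2 its log2 fold change was -0.31 (SE 0.17, interval -0.66 to 0.05, adjusted p = 0.279). The clones themselves differed, with TGFB2 higher in clone 2 than in clone 1 by 0.74 (SE 0.17, adjusted p = 0.00391). The transcript TGFB2-OT1, listed at 0 counts in all 9 libraries, shares 1371 of the 5151 exon bases of TGFB2 on the same strand, and how the counting treated reads there was not tested.

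INHBA (chromosome 7, 41667168 to 41705834, minus strand) had 8.55, 4.66 and 4.29 CPM in clone 1, 15.7, 9.93 and 8.40 CPM in clone 2, and 28.7, 19.7 and 16.2 CPM in wild type. Every knockout library lay below every wild-type library, and the highest clone 1 library lay just above the lowest clone 2 library. Replicate 1 was the highest and replicate 3 the lowest library in each group. In clone 1 INHBA fell by 1.88 (SE 0.31, interval -2.53 to -1.23, adjusted p = 0.00286). In clone 2 its log2 fold change was -0.93 (SE 0.29, interval -1.56 to -0.31, adjusted p = 0.0717), and -0.94 with an adjusted p of 0.000793 once the replicate number entered the fit as a block. DESeq2 and limma-voom called it in clone 2 too (adjusted p = 0.0269 and 0.0418 in that order). INHBA was higher in clone 2 than in clone 1 by 0.95 (SE 0.31, adjusted p = 0.0256). That call between the clones was lost without clone 1 replicate 2 (0.78, adjusted p = 0.107), clone 1 replicate 3 (0.78, adjusted p = 0.106) or clone 2 replicate 1 (0.65, adjusted p = 0.102).

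BMP5 (chromosome 6, 55753645 to 55875564, minus strand) had the fewest counts of the 10 members, between 11 and 285 per library. It had 0.777, 1.28 and 0.613 CPM in clone 1, 1.86, 2.37 and 1.76 CPM in clone 2, and 5.88, 12.1 and 4.73 CPM in wild type. The groups did not overlap, with clone 1 lowest, clone 2 between and wild type highest, and the wild-type libraries spread widely. In clone 1 BMP5 fell by 3.07 (SE 0.41, interval -3.94 to -2.19, adjusted p = 0.000440). It fell by 1.92 in clone 2 (SE 0.38, interval -2.73 to -1.10, adjusted p = 0.0105). Without wild-type replicate 2 the clone 2 difference was -1.43 (adjusted p = 0.0935), without clone 2 replicate 3 it was -1.84 (adjusted p = 0.0533), and with the mitochondrial share as a covariate it was -1.15 (adjusted p = 0.430). BMP5 was higher in clone 2 than in clone 1 by 1.15 (SE 0.42, adjusted p = 0.0458).

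That BMP5 call between the clones was lost without any 1 of clone 1 replicates 1 and 3 and clone 2 replicates 1, 2 and 3, with differences of 1.06, 0.95, 1.19, 0.96 and 1.22 (adjusted p = 0.115, 0.158, 0.0565, 0.130 and 0.0731 in that order). It was also lost with RLE size factors (adjusted p = 0.0532), in the fit of only the 6 libraries compared (adjusted p = 0.0906) and by limma-voom (adjusted p = 0.152). By contrast, the 3 clone 1 calls of TGFB2, INHBA and BMP5 held in 9 of 9 fits that left out 1 library. Their adjusted p rose to at most 0.0193 for TGFB2, 0.0237 for INHBA and 0.00576 for BMP5.

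**Figure D2:**
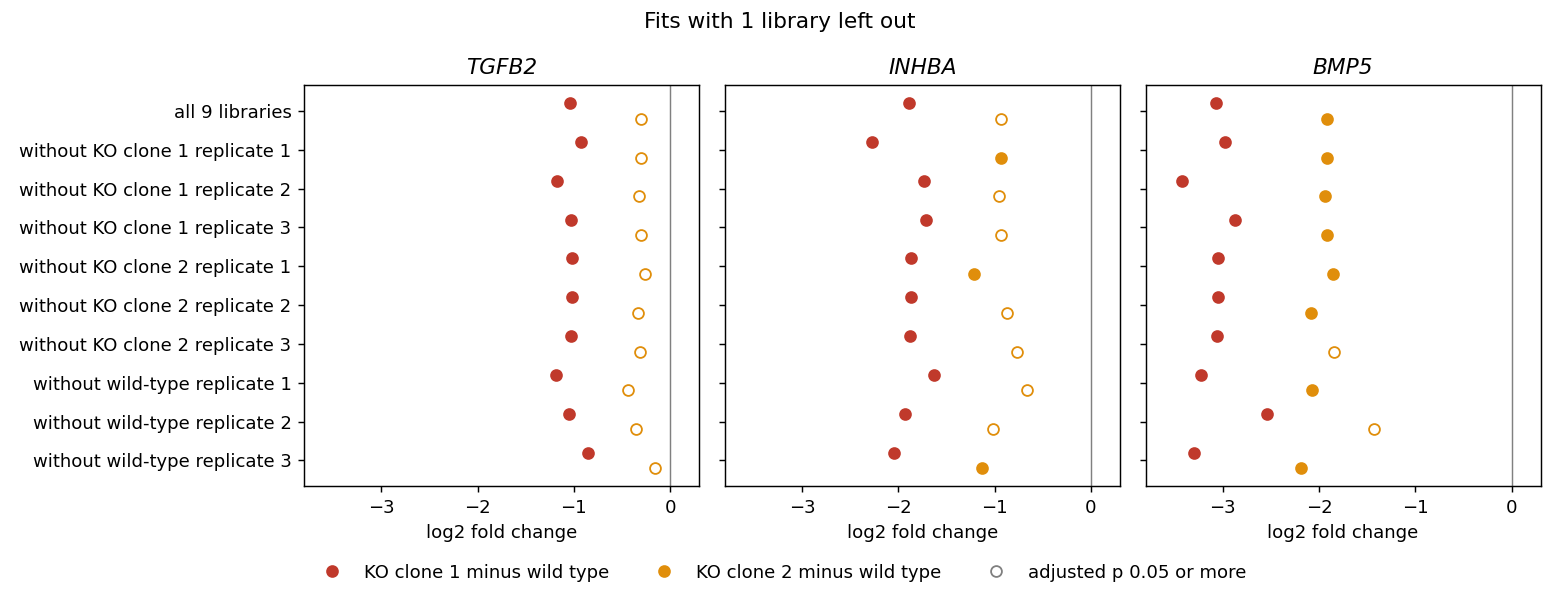
Log2 fold changes of TGFB2, INHBA and BMP5 against wild type (x axis) in the fit of all 9 libraries and in fits with 1 library left out (rows); filled points have an adjusted p under 0.05. The clone 1 points of the 3 genes stay filled in 9 of 9 fits, and the clone 2 point of BMP5 is filled in 7 of 9 and that of INHBA in 3 of 9.

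TGFB1 (chromosome 19, 41301587 to 41353911, minus strand) averaged 139 ± 16.6 CPM in clone 1, 162 ± 23.3 CPM in clone 2 and 168 ± 14.6 CPM in wild type (SD, n = 3 each). Its groups overlapped, with log2 fold changes of -0.27 in clone 1 (interval -0.58 to 0.05, adjusted p = 0.309) and -0.05 in clone 2 (interval -0.37 to 0.26, adjusted p = 0.867). The neighbouring gene HNRNPUL1 covers 215 of its 3238 exon bases on the opposite strand, and no source used here gives the strand setting of the counting. BMP4 (chromosome 14, 53949736 to 53958761, minus strand) averaged 88.0 ± 18.1 CPM in clone 1, 104 ± 22.9 CPM in clone 2 and 126 ± 39.0 CPM in wild type. In the fit without the replicate block, its log2 fold changes were -0.51 in clone 1 (interval -0.98 to -0.05, adjusted p = 0.182) and -0.27 in clone 2 (interval -0.74 to 0.19, adjusted p = 0.472). The groups of BMP4 overlapped too.

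**Figure D3:**
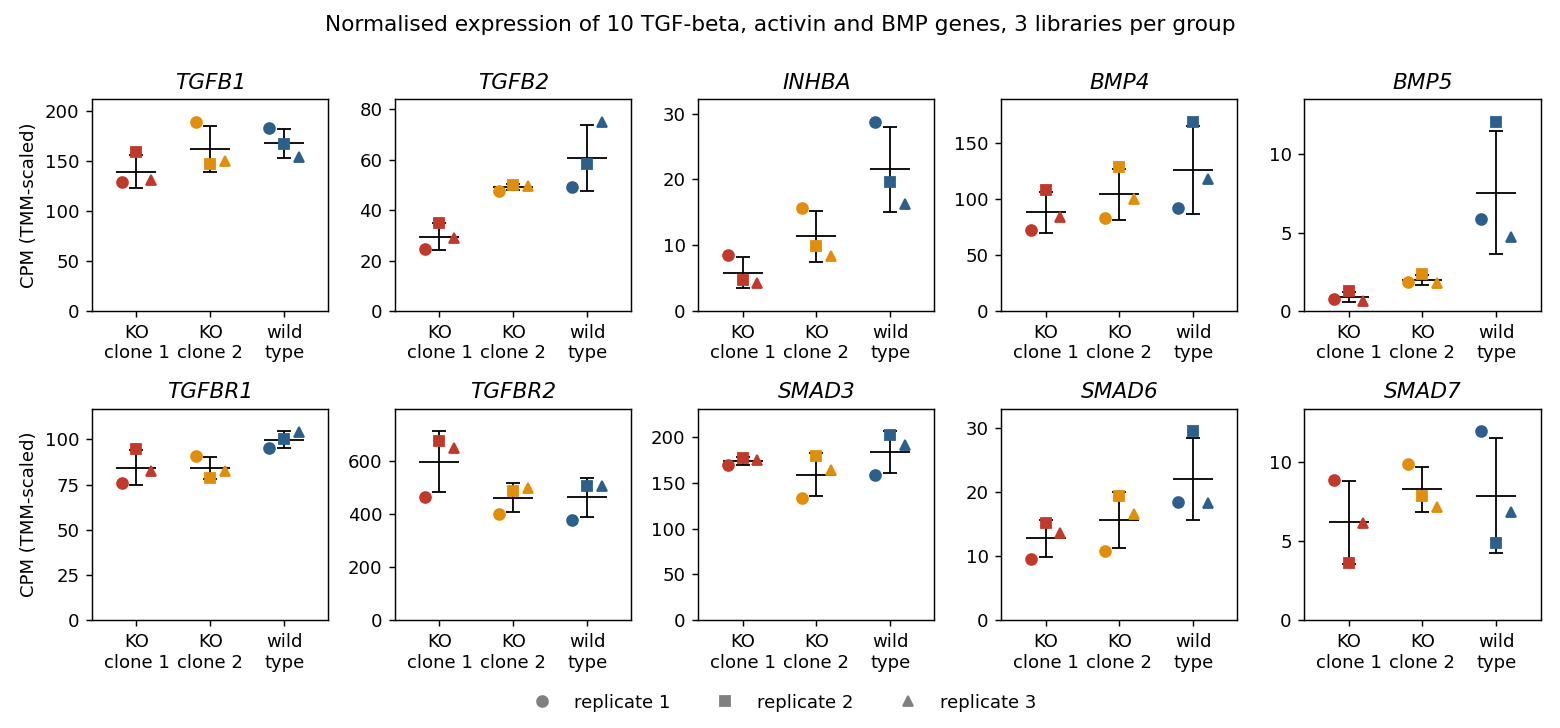
Normalised expression (CPM) of each member in 3 libraries of clone 1, clone 2 and wild type; points are libraries with the replicate number as shape, and bars give the mean and SD. TGFB2 averages 29.4 CPM in clone 1, 49.1 CPM in clone 2 and 60.8 CPM in wild type, and BMP5 averages 0.891, 1.99 and 7.55 CPM in the same order.

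Neither TGF-beta receptor gene passed the test in either clone in the fit without the block. TGFBR2 (chromosome 3, 30606502 to 30694142, plus strand), the type II receptor that binds the ligand, had 465.3, 676.7 and 649.4 CPM in clone 1, 400.4, 486.8 and 498.9 CPM in clone 2, and 379.6, 505.8 and 507.6 CPM in wild type. Replicate 1 was the lowest library in all 3 groups, and the groups overlapped. TGFBR2 was the 1 member with a positive estimate in clone 1, a log2 fold change of 0.36 (SE 0.18, interval -0.03 to 0.75, adjusted p = 0.265), and in clone 2 the estimate was -0.01 (interval -0.40 to 0.38, adjusted p = 0.988). With the replicate block and a GC and length correction together, TGFBR2 was called higher in clone 1 (0.44, adjusted p = 0.0235).

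TGFBR1 (chromosome 9, 99104038 to 99154192, plus strand), the type I kinase that phosphorylates SMAD2 and SMAD3, had 75.9, 94.8 and 82.5 CPM in clone 1, 90.7, 78.8 and 82.7 CPM in clone 2, and 95.3, 100.2 and 104.2 CPM in wild type. All 6 knockout libraries lay below all 3 wild-type libraries, by a narrow margin. The log2 fold changes were -0.24 in clone 1 (interval -0.52 to 0.04, adjusted p = 0.300) and -0.25 in clone 2 (interval -0.53 to 0.03, adjusted p = 0.264). Per length, TGFBR2 stood 10.3 ± 1.27 times above TGFBR1 in clone 1, 8.06 ± 1.43 times in clone 2 and 6.74 ± 0.828 times in wild type (ratio of TPM, SD, n = 3 each), a description with no test.

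Among the SMAD genes, SMAD3 (chromosome 15, 67063763 to 67195195, plus strand), which carries TGF-beta and activin signals to the nucleus, averaged 174 ± 3.95 CPM in clone 1, 159 ± 23.3 CPM in clone 2 and 184 ± 22.5 CPM in wild type. Its log2 fold changes of -0.08 in clone 1 (interval -0.39 to 0.23, adjusted p = 0.791) and -0.21 in clone 2 (interval -0.52 to 0.11, adjusted p = 0.422) did not pass. SMAD6 (chromosome 15, 66702228 to 66782848, plus strand), an inhibitory SMAD of the BMP branch, had 9.63, 15.2 and 13.6 CPM in clone 1, 10.9, 19.4 and 16.7 CPM in clone 2, and 18.5, 29.5 and 18.4 CPM in wild type. Clone 1 lay wholly below wild type, and clone 2 overlapped wild type through its second library.

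The SMAD6 log2 fold change was -0.79 in clone 1 (SE 0.25, interval -1.31 to -0.27, adjusted p = 0.0732), over the threshold in the fit of all libraries and under it in 1 of 9 fits that left out a library. It was also called lower without the filter on low counts, with the replicate block, with the mitochondrial share as a covariate and by DESeq2 (adjusted p = 0.0048, 0.00309, 0.0104 and 0.0495 in that order). In clone 2 it was -0.50 (SE 0.24, adjusted p = 0.226), and -0.51 with an adjusted p of 0.0424 in the fit with the replicate block. With that block, 3 members were called lower in clone 2 (INHBA, BMP5 and SMAD6) where the fit without it called 1, and the block called 6.92% of all genes lower and 9.03% higher. SMAD7 (chromosome 18, 48919853 to 48950711, minus strand), the inhibitory SMAD that acts on both branches, had 8.86, 3.61 and 6.13 CPM in clone 1, 9.90, 7.84 and 7.16 CPM in clone 2, and 11.9, 4.87 and 6.84 CPM in wild type. Replicate 1 was highest in each group and the groups overlapped. Its estimates were -0.35 in clone 1 (interval -1.07 to 0.38, adjusted p = 0.587) and 0.07 in clone 2 (interval -0.64 to 0.79, adjusted p = 0.920).

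The same replicate number gave the highest library in all 3 groups for 6 members (INHBA, BMP4, BMP5, SMAD3, SMAD6 and SMAD7), or 60%, against 19.3% of all tested genes. The lowest library shared its number in all 3 groups for 6 members (TGFB2, TGFBR2, INHBA, BMP4, BMP5 and SMAD3), against 18.2% of all tested genes. The labels do not say what a replicate number marks.

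Levels were compared between genes per length, as TPM from the counts and the listed gene lengths. TGFBR2 was the most abundant member in each group, with 440.3 ± 81.3 TPM in clone 1, 346.3 ± 69.8 TPM in clone 2 and 356.1 ± 61.3 TPM in wild type. TGFB1, BMP4, SMAD3, TGFBR1 and TGFB2 followed in that order of means in each group. In clone 1 and clone 2 each of these neighbours was separate from the next in every library, whereas in wild type TGFB1 overlapped BMP4, and TGFBR1 overlapped TGFB2.

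The 4 scarcest members came in another order of means in the clones than in wild type. In clone 1 SMAD7 (5.84 TPM) and SMAD6 (5.19 TPM) overlapped, SMAD6 lay above INHBA (2.45 TPM) in every library, and INHBA lay above BMP5 (0.788 TPM) likewise. In clone 2 SMAD7 (7.79 TPM), SMAD6 (6.50 TPM) and INHBA (4.68 TPM) overlapped as neighbours, with BMP5 below them at 1.77 TPM. In wild type INHBA (9.31 TPM), SMAD6 (9.29 TPM), SMAD7 (7.67 TPM) and BMP5 (6.86 TPM) overlapped as neighbours. BMP5 was at 0.00779 ± 0.00185 of the BMP4 level in clone 1, at 0.0152 ± 0.00196 in clone 2 and at 0.0458 ± 0.0128 in wild type (ratio of TPM, SD, n = 3 each).

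**Figure D4:**
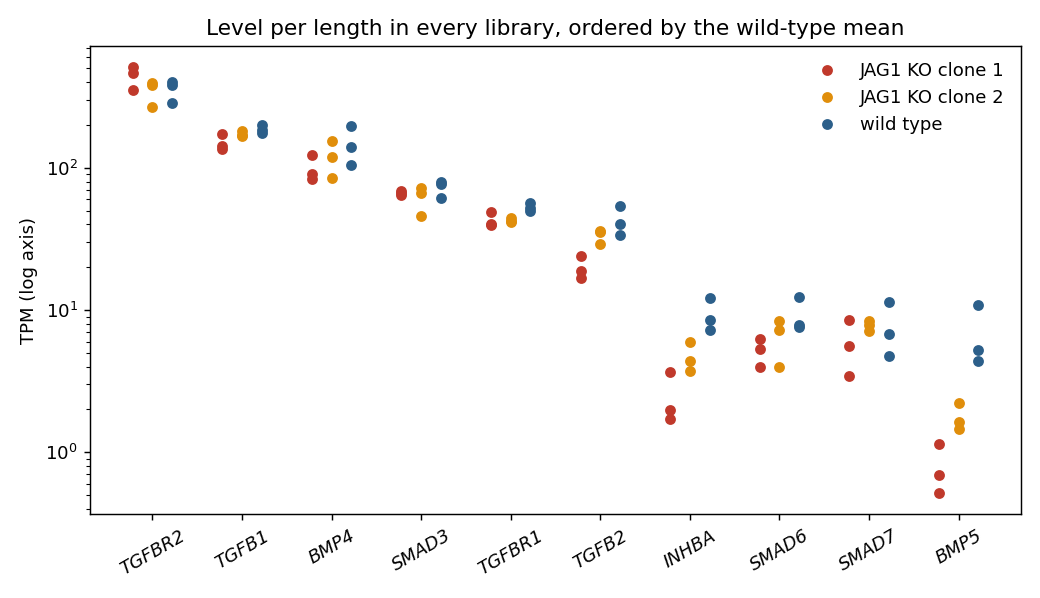
Level per length (TPM, log axis) of each member in every library of clone 1, clone 2 and wild type, ordered by the wild-type mean. TGFBR2 is highest in each group (440.3 TPM in clone 1, 346.3 TPM in clone 2 and 356.1 TPM in wild type), and in clone 1 the means of INHBA (2.45 TPM) and BMP5 (0.788 TPM) are the lowest.

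Set directly against clone 1, clone 2 had 3 members higher (TGFB2, INHBA and BMP5) and 0 lower, against 19.8% of all tested genes called higher and 14.1% called lower. Libraries of clone 2 lay wholly above those of clone 1 for 2 members (TGFB2 and BMP5) and below for 0, against 25.8% and 21.6% of all genes. The member median was 0.27 on the log2 scale and that of all genes -0.01. The absence of lower calls did not hold under every setting. With the GC and length correction, 2 members were higher in clone 2 (TGFB2 and BMP5) and 2 lower, against 18.2% and 16.8% of all genes. The lower ones were TGFBR2 (-0.51, adjusted p = 0.0391) and SMAD3 (-0.42, adjusted p = 0.0236), and INHBA was no longer called (0.88, adjusted p = 0.0522). With the replicate block, TGFBR2 was lower too (-0.36, adjusted p = 0.0489), and with block and correction together so were TGFBR2 (-0.50, adjusted p = 0.00344) and SMAD3 (-0.43, adjusted p = 0.0041). TGFB2 held this call in 9 of 9 fits that left out a library. With the mitochondrial mRNA share as a covariate, 0 members were called between the clones, with adjusted p of 0.204 for TGFB2, 0.670 for INHBA and 0.0832 for BMP5. That share was 2.28 to 4.90% in clone 1 libraries and 0.843 to 1.79% in clone 2 libraries, so it separated the clones completely, and the clone and the share cannot be told apart.

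The wider pathway was read from 6 lists of 156 genes, of which 146 were not members and 113 of those were tested. In clone 1, 13 of the 113 were lower and 0 higher, with a median log2 fold change of -0.17. Each of 9 other settings with no replicate left out called 1 to 6 of them higher and 11 to 27 lower. In clone 2, 6 were lower and 7 higher, with a median of 0.02, and 15 were lower and 22 higher in the fit with the replicate block. Between the clones, 28 were higher and 6 lower in clone 2, with a median of 0.25. Over all genes, 4.1% were called lower and 1.41% higher in clone 1, and 2.75% and 3.21% in clone 2. Between the clones the shares were 14.1% lower and 19.8% higher, and in clone 2 with the block 6.92% and 9.03%. The unblocked shares hold for each list below. DESeq2 called 17 of the 113 lower and 3 higher in clone 1, against 5.68% and 3.06% of all genes. The lists, like the members, were chosen with earlier results of these data known.

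Of 12 other ligand genes tested, 0 were called in either clone by edgeR, with 1 lower in clone 1 (INHBB) and 2 lower in clone 2 (TGFB3 and AMH) at an unadjusted p under 0.05. A further 16 had too few counts to test, including BMP7, which was at 0 in all libraries, and BMP2, which had at most 17 counts in a library. Of 14 other receptor genes, 0 passed in clone 1, where BMPR1B was lower and RGMB higher at an unadjusted p under 0.05. In clone 2 RGMB, a BMP co-receptor, rose by 0.91 (adjusted p = 0.0128), and BMPR1B, a type I BMP receptor, fell by 0.67 (adjusted p = 0.0479). RGMB averaged 45.4 ± 5.62 CPM in clone 1, 63.0 ± 11.0 CPM in clone 2 and 33.6 ± 8.62 CPM in wild type. Its clone 2 call was lost without wild-type replicate 2 (0.69, adjusted p = 0.0805) or clone 2 replicate 3 (0.76, adjusted p = 0.0706).

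Among 23 latency and extracellular regulators, 2 were lower in clone 1, and 4 were lower and 2 higher in clone 2. FSTL1, a secreted follistatin-like protein, averaged 68.0 ± 11.1 CPM in clone 1, 67.3 ± 7.87 CPM in clone 2 and 134 ± 34.6 CPM in wild type. It fell by 0.98 in clone 1 (adjusted p = 0.00644) and by 1.00 in clone 2 (adjusted p = 0.00582), and both calls held without any 1 library. NOG, the BMP antagonist noggin, rose by 0.63 (adjusted p = 0.0263) and FST, follistatin, which binds activin, by 0.61 (adjusted p = 0.0372). TWSG1, a BMP-binding protein that acts with chordin, fell by 0.62 (adjusted p = 0.0132), BMP1, a protease that cleaves chordin, by 0.77 (adjusted p = 0.0343) and LTBP3, a latent TGF-beta binding protein, by 0.91 (adjusted p = 0.0352).

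BMPER, a secreted BMP-binding protein, was the other regulator lower in clone 1 (-3.31, adjusted p = 0.0379). It rested on 5 counts over the clone 1 libraries, 63 over clone 2 and 56 over wild type, or 0.0861 ± 0.0308 CPM in clone 1, 1.11 ± 0.334 CPM in clone 2 and 0.911 ± 0.655 CPM in wild type. Per length, FST stood 28.1 ± 10.2 times above INHBA in clone 1, 25.0 ± 10.9 times in clone 2 and 8.51 ± 3.83 times in wild type. FSTL3, another activin-binding protein, stood 16.0 ± 1.24 times above INHBA in clone 1, 10.8 ± 2.06 times in clone 2 and 5.52 ± 0.769 times in wild type (ratios of TPM, SD, n = 3 each). The ratio of FSTL3 to INHBA was thus higher in every knockout library than in any wild-type library, with no test made. FSTL3 itself was not called by edgeR in clone 1 (-0.39, adjusted p = 0.443) or clone 2 (-0.005, adjusted p = 0.995). The ratio therefore carries the lower INHBA level given above and is no separate result.

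Of 30 other SMADs and intracellular regulators, 3 were lower in clone 1 and 2 higher in clone 2, with medians of -0.23 in clone 1 and 0.25 in clone 2. SMAD1, a BMP-branch SMAD, averaged 3.03 ± 0.716 CPM in clone 1, 5.94 ± 0.762 CPM in clone 2 and 6.75 ± 0.205 CPM in wild type, and fell by 1.15 in clone 1 (adjusted p = 0.0198). TGIF2, a SMAD corepressor, and FKBP1A, which binds the type I receptor, both fell by 0.53 in clone 1 (adjusted p = 0.0440 and 0.0478). In clone 2 the corepressor gene SKI rose by 0.58 (adjusted p = 0.0196), and the ubiquitin ligase gene NEDD4L by 0.75 (adjusted p = 0.0355). Between the clones 14 of these 30 were higher in clone 2 and 0 lower, against 19.8% and 14.1% of all genes. SMAD1, SMAD4 and SMAD5 were among the 14.

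Among 26 other genes that TGF-beta or activin is known to induce, 6 were lower in clone 1 and 0 higher. Of all genes, 4.1% were lower and 1.41% higher. The median over the 26 was -0.64. TGM2, a protein crosslinking enzyme, averaged 120.5 ± 7.30 CPM in clone 1, 472.8 ± 83.2 CPM in clone 2 and 322.3 ± 65.9 CPM in wild type. It fell by 1.42 in clone 1 (SE 0.18, adjusted p = 0.000236), its estimate in clone 2 was 0.55 (SE 0.18, adjusted p = 0.0717; 0.56 and 0.0133 with the block), and it was higher in clone 2 than in clone 1 by 1.97 (adjusted p = 4.26e-06). FN1, fibronectin, fell by 1.56 in clone 1 (adjusted p = 0.00796); leaving out clone 1 replicate 3 ended that call (-1.51, adjusted p = 0.0528). The others lower in clone 1 were LOXL2 (-0.60), BHLHE40 (-0.83), SNAI2 (-0.85) and NEDD9 (-0.94).

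In clone 2, 2 of these 26 were higher and 0 lower, CTGF by 0.90 (adjusted p = 0.0320) and the cell cycle inhibitor gene CDKN1A by 0.58 (adjusted p = 0.0338). TGFBI and PMEPA1, common TGF-beta targets, were not called in either clone in the fit without the block, with estimates of -0.98 and -0.39 in clone 1 and -0.11 and 0.46 in clone 2. With the block, edgeR called TGFBI lower in clone 1 (-0.89, adjusted p = 0.000578).

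Of 14 other BMP target genes, 2 were lower in clone 1, and 1 was lower and 1 higher in clone 2. The homeobox gene MSX2 averaged 6.23 ± 0.951 CPM in clone 1, 15.0 ± 0.748 CPM in clone 2 and 12.9 ± 1.93 CPM in wild type, and fell by 1.05 in clone 1 (adjusted p = 0.00694). ZNF503 fell by 0.72 in clone 1 (adjusted p = 0.0294), and TNFRSF11B, osteoprotegerin, fell by 1.14 in clone 2 (adjusted p = 0.0388). ID1, the classical immediate BMP target, averaged 34.4 ± 6.33 CPM in clone 1, 33.0 ± 5.96 CPM in clone 2 and 31.8 ± 12.1 CPM in wild type, with estimates of 0.12 (adjusted p = 0.808) and 0.05 (adjusted p = 0.920). ID3 had estimates of 0.10 in clone 1 (adjusted p = 0.847) and 0.22 in clone 2 (adjusted p = 0.598).

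Many of these pathway calls were lost when 1 library was left out. Over all genes, the clone 1 count of 933 ran from 200 to 1301 in such fits. Whether single libraries or the smaller groups account for the losses was not tested. FSTL1, TGM2 and MSX2 kept their clone 1 calls without any 1 library, and the other 10 lost theirs in 1 to 7 of 9 fits, with adjusted p of up to 0.227. The clone 1 count of 13 became 6, 7, 8, 6 and 3 without wild-type replicates 2 and 3 and clone 1 replicates 1, 2 and 3 in that order. In clone 2, FSTL1 kept its call without any 1 library and the other 12 lost theirs in 2 to 8 of 9 fits, with adjusted p of up to 0.217. The clone 2 count of 13 became 2, 3, 8 and 1 without wild-type replicates 1 and 2, clone 1 replicate 2 and clone 2 replicate 3, and 22 and 21 without wild-type replicate 3 and clone 2 replicate 1, in that order. With the mitochondrial mRNA share as a covariate, 12 were called in clone 1, 2 in clone 2 and 5 between the clones.

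**Figure D5:**
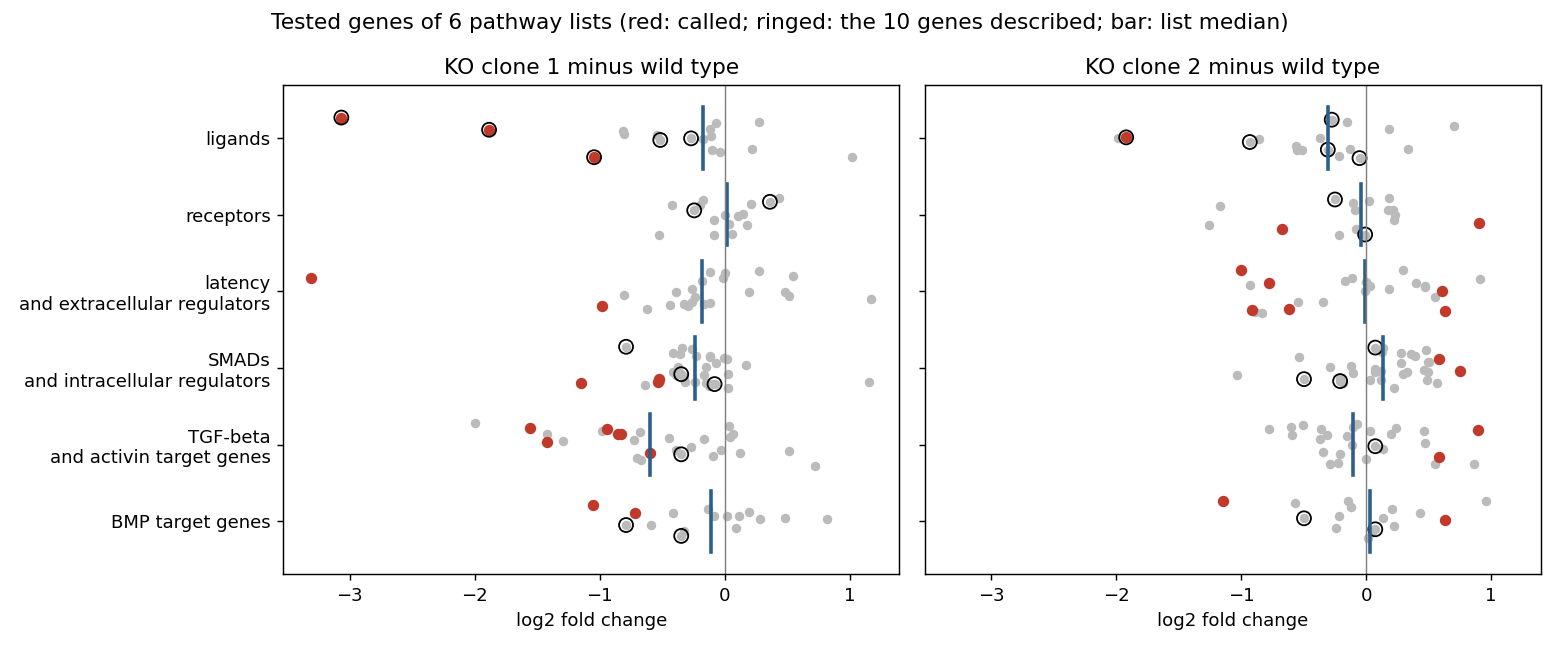
Log2 fold change against wild type (x axis) of the tested genes of 6 pathway lists (rows), members included and ringed, for clone 1 (left) and clone 2 (right); red points were called, bars are list medians, and vertical scatter only separates points. Of the 113 genes that are not members, in the fit without a replicate block, 13 are called lower and 0 higher in clone 1, and 6 lower and 7 higher in clone 2.

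The protein-coding genes whose log2 CPM over the 9 libraries was most like that of each called member were listed as a description. For TGFB2 these were IDH2, PCYOX1 and CUL4B, with Pearson's r of 0.970, 0.967 and 0.965. For INHBA they were FN1, ENTPD6 and KRT7, with r of 0.962, 0.957 and 0.956. For BMP5 they were ARHGAP31, ABCA1 and KIAA1841, with r of 0.954, 0.948 and 0.944. The 9 libraries fall into 3 groups, so these values reflect differences between groups as well as spread within them. FN1, itself on the TGF-beta target list, averaged 333 ± 71.2 CPM in clone 1, 690 ± 329 CPM in clone 2 and 980 ± 259 CPM in wild type, the same order of means as INHBA.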

How the data were processed

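RNA sequencing was done on 9 libraries, 3 each of JAG1 knockout clone 1, JAG1 knockout clone 2 and wild type. Raw gene counts, as deposited by the authors, came in a pair of tables that share the wild-type columns (3 of 3 identical), which were used once. STAR, featureCounts, Subread and DESeq2 with the build GRCh38 are named, per the submitters' processing notes. No source used here gives the annotation release or strand setting, so reads where genes overlap could belong to either.

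The counts were tested with edgeR 4.0.16 in R 4.3.3: filterByExpr with a minimum count of 10, TMM scaling, and robust quasi-likelihood dispersions from 1 fit with 3 groups (9 libraries, 6 residual degrees of freedom, biological coefficient of variation 20.3%). Tests were two-sided, with Benjamini-Hochberg adjustment over 16921 genes. The code was tested on simulated data. The text names all members, JAG1, up to 6 called genes per pathway list with the smallest adjusted p, and pathway genes above 100 CPM in all groups; BMPER, NEDD9, CDKN1A, SMAD4, SMAD5, FSTL3, ID1, ID3, BMP2, BMP7, TGFB3, INHBB and AMH were added after their values were seen. Some listed genes are not reported here by name. The members and lists were chosen with earlier results of these data known. Patterns of likeness used log2(CPM + 0.5) and genes with a mean of 5 CPM or more.

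Libraries of a group differed by a chi-square per gene of 17.1 to 55.8, far above sampling noise, and none was treated as a duplicate. Deviations from group means of same-numbered libraries correlated at 0.223, 0.269 and 0.246 between clone 2 and wild type, so these count as paired, a hint from the data and not from the labels. The values reported nevertheless come from the fit without the block. Blocked values stand beside some, not all, of those where the block changed a call. Blocked totals of members, pathway genes and all genes are given where they moved by over 1.5 times. The values were 0.245, 0.0825 and -0.0965 between clone 1 and wild type, and 0.219, -0.0215 and 0.0124 between the clones, which were not treated as paired. Alternatives were RLE size factors, no filter, the replicate block, a GC and length correction (87.3% of tested genes, GENCODE release 29) with and without the block, the mitochondrial mRNA share of 13 genes as a covariate, only the 6 libraries compared, limma-voom (limma 3.58.1), DESeq2 1.42.0 and leaving out each library.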

Additional observations from a re-analysis of the deposited data

Results flagged for a closer look

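These genes are listed because the difference from wild type was not the same in the 2 clones. Clone 2 was tested directly against clone 1 with edgeR, which is the test of that difference since both share the wild-type libraries. Among the members, the log2 difference of clone 2 minus clone 1 was 0.738 for TGFB2, 0.954 for INHBA and 1.147 for BMP5. Among secreted regulators it was 0.430 for NOG, 0.788 for FST and 1.281 for THBS1, and -0.606 for BMP1 and -0.387 for LTBP4. Among SMADs and intracellular regulators it was 0.926 for SKI, 0.964 for SMAD1, 1.267 for NEDD4L, 1.016 for TGIF2 and 0.599 for FKBP1A. Among target genes it was 1.972 for TGM2, 1.053 for FN1, 0.445 for LOXL2, 0.772 for CTGF, 1.265 for MSX2 and 1.153 for ZNF503. Clone 2 was higher in 17 of these 19 genes, which were picked by a naming rule. Without that rule, 28 of the pathway genes that are not members were called higher and 6 lower in clone 2. Of all genes called between the clones, 58.5% were higher in clone 2. The list holds only members and pathway genes named by the rule given above that had an adjusted p under 0.05 in this test, so that all 19 pass is no result. Other pathway genes that passed, such as SMAD4 and CDKN1A, fell outside that naming rule and are left out. Over all genes tested 33.9% passed, and groups of 3 libraries are too small for an outlier test.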

How the results depend on the processing

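No called value changed sign under any alternative run; uncalled values did in 19 of 540 member values and 49 of 1890 values of other named genes. TGFB2, INHBA and BMP5 kept their clone 1 calls under all alternatives run. Members called in clone 1 numbered 3, with 5 without the filter, 5 with the replicate block, 6 with the block and the GC and length correction (5 lower and 1 higher), and 3 to 4 with 1 library left out. In clone 2 they numbered 1, with 2 without the filter, 3 with the block, 4 with the block and the correction, 0 with the mitochondrial share, 2 by limma-voom, 2 by DESeq2, and 0 to 2 with 1 library left out. Between the clones they numbered 3, all higher in clone 2, with 4 under the correction (2 lower), 4 under the block (1 lower), 5 under the block and correction (2 lower), 0 with the mitochondrial share and 1 to 3 with 1 library left out. Other pathway genes called in clone 1 numbered 13, with 23 without the filter, 30 with the block (27 lower and 3 higher), 29 with the block and correction (23 lower and 6 higher), 20 by DESeq2 and 3 to 17 with 1 library left out. In clone 2 they numbered 13, with 23 without the filter, 37 with the block (15 lower and 22 higher), 36 with the block and correction (17 lower and 19 higher), 2 with the mitochondrial share, 4 in the 6 libraries, 23 by DESeq2 and 1 to 22 with 1 left out. Between the clones they numbered 34, with 54 under the block, 52 under the block and correction, 5 with the mitochondrial share and 23 to 37 with 1 left out. Over all genes, 933 were called in clone 1, against 1512 without the filter, 2322 with the block, 2162 with the block and correction, 1479 by DESeq2 and 200 to 1301 with 1 library left out. In clone 2, 1008 were called, against 1663, 2699, 2659 and 1818 under the same settings in that order, 80 with the mitochondrial share, 416 in the 6 libraries and 237 to 1584 with 1 left out. Between the clones, 5733 were called, against 391 with the mitochondrial share and 3639 to 5782 with 1 left out. The cause of these shifts was not tested. Of the clone 1 calls over all genes, 25.6% were higher, and 39.2% after the GC and length correction. BMP5, with 11 to 27 counts per clone 1 library, is the member whose fold change depth limits most.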
